A study of Mus musculus with 4 samples.

Results

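Wnt ligands and their Frizzled receptors were followed across 4 expression arrays of vascular smooth muscle cells, the contractile cells of the artery wall. Probe sets were named through RefSeq accessions, and every gene whose symbol begins with Wnt or Fzd and a digit was kept. This gave 28 genes of 909 named genes on the array, 19 Wnt ligands and 9 Frizzled receptors, from 29 probe sets. Each gene was read from its brightest probe set. The same rule also asked for the secreted Frizzled-related proteins, the Dickkopf inhibitors, Wif1 and the co-receptors Lrp5 and Lrp6, but 0 of them were among the named probe sets, nor was the receptor gene Fzd9. The account below therefore covers ligands and receptors only.

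Wnt proteins are secreted, lipid-bearing glycoproteins that bind Frizzled receptors on the cell surface. Together with Lrp5 or Lrp6, a bound Frizzled can stabilise beta-catenin, and other Wnt and Frizzled pairs act on cell polarity or calcium without it. In bone, beta-catenin signalling favours osteoblast formation, and Wnt signalling is also studied in arteries whose smooth muscle cells turn bone-like.

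All cells were wild-type mouse cells differentiated in osteogenic medium into bone-like cells, and this holds for the controls too. The treated arm held 2 arrays of cells given 0.4 mM streptozotocin, a sugar-bearing DNA-alkylating agent used to make animals diabetic, and the control arm held 2 arrays without it. Replicate 1 of each arm carries the name WT2 and replicate 2 the name WTA, and these names are treated here as 2 cultures. All 4 titles also carry the code 3w, and the labels do not say whether it is an age, a culture time or something else. They name no animals and no strain, and do not say whether WT2 and WTA came from separate animals. The p-values below therefore measure only the spread between these samples, which may be technical. The series' design text asks how genes of sugar-chain biology respond to streptozotocin during calcification, and also plans a comparison with Runx2 knockout mice. Cells of such mice are not analysed here.

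The values are log2 array signals made by robust multi-array averaging (RMA), and differences of them are log2 ratios. The values began at 2.09, with a median of 5.86 and a lower quartile of 4.39. Correlations between arrays over all probe sets lay between 0.977 and 0.997. With 2 arrays in each group, precision is low. None of the 7 smooth muscle markers (Acta2, Myh11, Tagln and others) and none of the 8 osteogenic markers (Runx2, Alpl, Spp1 and others) was among the named probe sets, so the labelled cell type could not be checked on them. Markers of other cell types were mixed. Of the 4 endothelial markers measured, Pecam1 (mean 3.88) and Sele (mean 3.30) were below the lower quartile on all 4 arrays. Cd34, which is also found on other cells, was bright throughout (8.93 to 10.5), and Esm1 was dim in WT2 (mean 4.23) and bright in WTA (mean 9.16). Of the 4 leukocyte markers measured, Adgre1 (2.79 to 3.16) and Mrc1 (3.87 to 4.09) were below the lower quartile, Cd209a lay between it and the median (5.55 to 5.63), and Csf1r, the receptor of a macrophage growth factor, was above the median on all 4 arrays (7.40 to 7.92).

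Promoter sequence was looked up for the genes on which the results turn. Wnt2b had the lowest p of the array in the streptozotocin comparison, Wnt4 the largest single difference among the 28 genes, and Fzd1 the 1 culture difference that passed the test. The RefSeq promoter table (GRCm38.p6) held 20 of the 28 genes, Wnt2b, Wnt4 and Fzd1 among them. The 250 bases before each gene's start are given 5′ to 3′ on the gene's strand. Capitals mark matches, on either strand, to any of 4 short motifs. The GC box was searched as GGGCGG, a site bound by Sp1 and its relatives. The core of TCF/LEF sites, through which beta-catenin acts on its targets, was searched as TCAAAG. The core of sites bound by RUNX factors, Runx2 among them, was searched as ACCACA. The TATA box, which places the start of transcription in some promoters, was searched as TATAAA. The windows are chr3:104961710-104961959 on the minus strand for Wnt2b, chr4:137277385-137277634 on the plus strand for Wnt4 and chr5:4758217-4758466 on the minus strand for Fzd1.
Wnt2b: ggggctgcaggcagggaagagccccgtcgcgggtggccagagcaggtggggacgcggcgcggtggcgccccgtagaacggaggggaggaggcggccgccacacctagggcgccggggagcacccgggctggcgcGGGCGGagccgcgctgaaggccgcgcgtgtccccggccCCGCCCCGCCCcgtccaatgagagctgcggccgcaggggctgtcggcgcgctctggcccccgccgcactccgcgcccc
Wnt4: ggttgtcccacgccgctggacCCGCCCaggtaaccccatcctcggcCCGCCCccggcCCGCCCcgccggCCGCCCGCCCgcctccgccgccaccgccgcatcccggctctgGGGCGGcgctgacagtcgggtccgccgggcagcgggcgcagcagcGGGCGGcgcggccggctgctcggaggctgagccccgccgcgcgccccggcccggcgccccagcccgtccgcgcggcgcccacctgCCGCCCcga
Fzd1: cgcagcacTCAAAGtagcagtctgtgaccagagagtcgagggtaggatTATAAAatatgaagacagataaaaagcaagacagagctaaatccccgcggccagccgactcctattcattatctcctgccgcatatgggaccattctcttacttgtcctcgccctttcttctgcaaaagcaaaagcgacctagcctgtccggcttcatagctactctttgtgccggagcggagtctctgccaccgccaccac

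The Wnt2b and Wnt4 windows were rich in G and C (80.8% and 85.2%) and held only GC boxes among the 4 motifs. Neighbouring GC boxes overlap by 1 base in Wnt2b and by 2 in Wnt4, and each match is counted. The Fzd1 window had 51.2% G and C, no GC box and 1 TCF/LEF core from 242 to 237 bases before the start. It also had 1 match to the TATA box letters, from 202 to 197 bases before the start. Whether that match places the start of transcription was not tested. Over 32817 windows of the same length, 32.7% held a GC box, 13.8% a TCF/LEF core and 12.4% a TATA box, and 4608 windows held a RUNX core. Over the 23 windows of the 20 genes, 17 held a GC box, 3 a TCF/LEF core, 0 a RUNX core and 2 a TATA box. The median share of G and C was 71.6% in these windows and 52.4% in all. These are matches of letters, and 0 matches says only that those letters are not in these windows.

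Among the receptors, the signals ran from 4.59 (Fzd4) to 12.4 (Fzd1), and 6 of 9 receptor genes had a mean above the median of all values. Among the ligands they ran from 3.29 (Wnt3) to 8.69 (Wnt4), with 7 of 19 above that median. In all, 13 of the 28 genes lay above it, where 50.1% of all probe sets did. Wnt3 and Wnt8a lay below the lower quartile. Background holds part of such dim values, so differences there are compressed. Brightness depends on the probes as well as on the RNA, so the order of probe sets is not an order of expression.

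**Figure D1:**
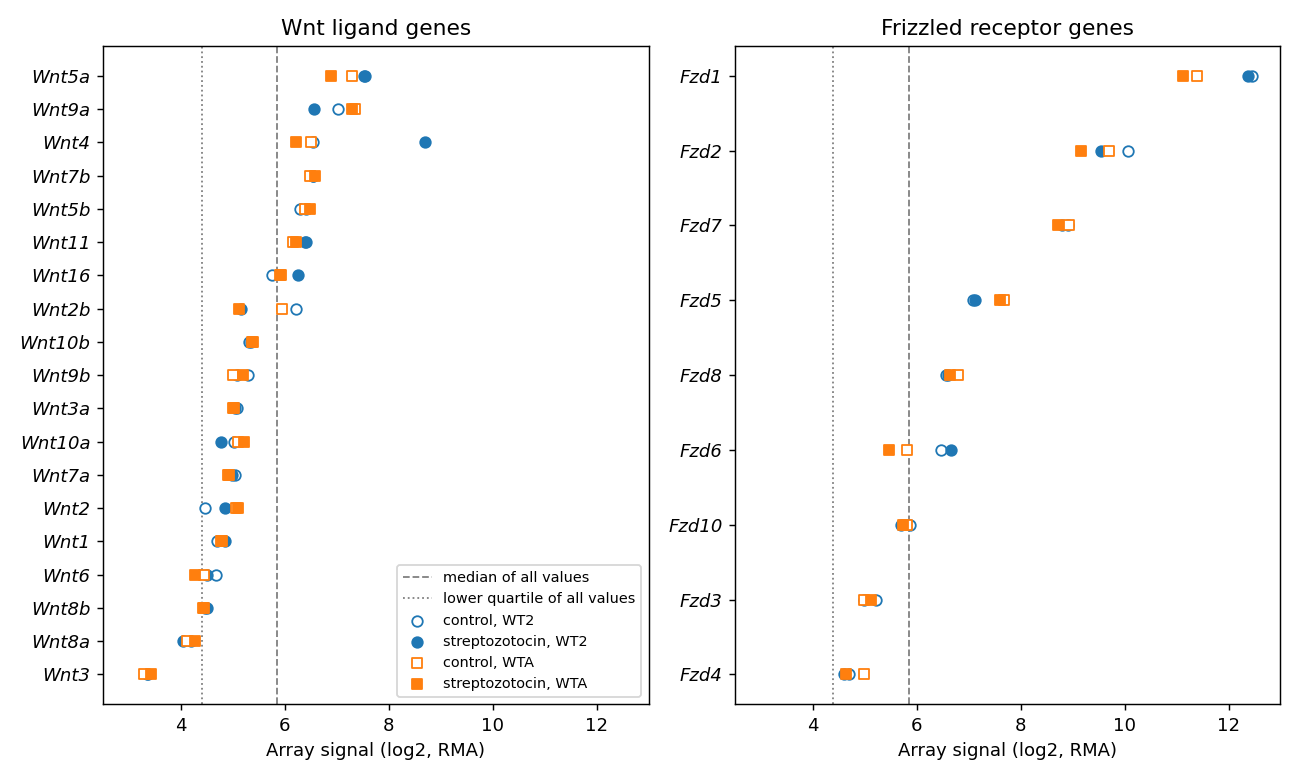
Array signal (log2, RMA) of each Wnt ligand gene and each Frizzled receptor gene on the 4 arrays, sorted by mean. Circles are WT2 and squares WTA, open symbols control and filled symbols streptozotocin, and the lines mark the median and lower quartile of all values. Wnt4 has 1 value (8.69, WT2 with streptozotocin) far from the other 3 arrays, Wnt2b has both treated arrays below both controls, and Fzd1 and Fzd6 are split by culture.

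The first comparison, streptozotocin against control, asks whether the compound changes the expression of ligands or receptors. Wnt2b, a ligand that can act through beta-catenin, was lower with streptozotocin in both cultures. In the control arrays its signal was 6.21 (WT2) and 5.94 (WTA), and with streptozotocin 5.15 and 5.12. Both treated arrays were below both controls, by -1.06 within WT2 and -0.82 within WTA. The means were 5.14 ± 0.03 and 6.08 ± 0.19 (SD, n = 2 each), a difference of -0.94 (SE 0.13) or 1.92-fold. In limma's fit without a block this was the lowest of 1246 p-values (unadjusted p = 0.00263), and it did not pass the test (adjusted p = 1). When the fit paired arrays by replicate number, as a block, it was the third lowest (limma unadjusted p = 0.00147, adjusted p = 0.536).

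Fzd2, a receptor close in sequence to Fzd1 and Fzd7, had the largest receptor difference. Its signal was 10.1 (WT2) and 9.70 (WTA) in control cells and 9.55 and 9.15 with streptozotocin. Both treated arrays were again below both controls, by -0.52 in WT2 and -0.55 in WTA. The mean difference of -0.54 (SE 0.22, limma adjusted p = 1) did not pass the test, nor did it with the replicate block (SE 0.09, adjusted p = 0.585). Wnt2b and Fzd2 were thus lower by similar amounts in each culture. Clec3b, Lum, Dcn and Pdgfra, the 4 of 7 fibroblast and adventitial markers measured, were lower in both cultures as well, as were 28.5% of all probe sets. Their differences were unequal. In WT2 and WTA they were -0.94 and -1.15 for Clec3b, -1.32 and -0.34 for Lum, -0.29 and -0.39 for Dcn, and -0.49 and -0.35 for Pdgfra. The mean log2 signal of these 4 genes was 11.2 (WT2) and 10.6 (WTA) in control cells and 10.5 and 10.1 with streptozotocin. Their part in the Wnt2b and Fzd2 differences was not tested. In such bulk RNA, fewer cells of a type and less RNA per cell cannot be told apart.

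Wnt4, a ligand known from kidney and bone development, differed in the opposite direction in the cultures. Its signal was 8.69 in WT2 with streptozotocin, against 6.54 in the WT2 control, 6.21 in WTA with streptozotocin and 6.51 in the WTA control. Only the treated WT2 array stood out, and the groups overlapped. The difference was 2.15 (4.44-fold) in WT2, the 9th largest of 1246 in size there, and -0.30 in WTA. The mean difference was 0.93, with a 95% interval of -1.71 to 3.57 (limma, no block, adjusted p = 1) or -0.91 to 2.76 (limma, replicate block, adjusted p = 0.916). Without that array it was -0.31.

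Wnt5a, the typical ligand of pathways without beta-catenin, was read as 7.55 (WT2) and 7.30 (WTA) in control cells and 7.53 and 6.89 with streptozotocin. The difference lay in WTA (-0.40) and was near 0 in WT2 (-0.02). Wnt9a, a ligand of joints and blood stem cells, showed the reverse, with 7.01 and 7.35 in control cells and 6.57 and 7.29 with streptozotocin. Here the WT2 difference was -0.45 and that of WTA -0.06. For both genes the control and treated arrays overlapped. Neither passed the test (mean differences -0.21 and -0.25, limma adjusted p = 1 for each). With the replicate block they did not pass either (limma adjusted p = 0.909 and 0.863).

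Among the other ligands above the median of all values, Wnt5b, Wnt7b and Wnt11 had mean differences of 0.10, 0.04 and 0.05. Wnt5b, a relative of Wnt5a, was read as 6.30 (WT2) and 6.39 (WTA) in control cells and 6.41 and 6.47 with streptozotocin. Wnt7b, a ligand active in lung and bone, stood between 6.49 and 6.57 on all 4 arrays. Wnt11, which acts mostly without beta-catenin, stood at 6.38 (WT2) and 6.15 (WTA) in control cells and 6.41 and 6.21 with streptozotocin. For Wnt5b both treated arrays were just above both controls, while those of Wnt7b and Wnt11 overlapped with them. The 95% intervals of the mean difference were -0.16 to 0.36 for Wnt5b, -0.20 to 0.28 for Wnt7b and -0.34 to 0.44 for Wnt11 (limma, no block). With the replicate block they were -0.17 to 0.37, -0.23 to 0.31 and -0.22 to 0.32. Wnt16, a ligand linked to cortical bone mass and also above the median, was read as 5.75 (WT2) and 5.93 (WTA) in control cells and 6.24 and 5.91 with streptozotocin. Its difference was 0.50 in WT2, larger in size there than those of Wnt9a and Wnt5a, and -0.02 in WTA, and the groups overlapped. Wnt2, whose mean of 4.86 lay below the median, had differences of 0.39 in WT2 and 0.03 in WTA. Neither Wnt16 nor Wnt2 passed the test (limma adjusted p = 1 for each), nor did they with the replicate block (limma adjusted p = 0.916 and 0.909).

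Among the other receptors, Fzd1 stood at 12.4 and 12.4 in WT2 and at 11.4 and 11.1 in WTA, control first. Its streptozotocin difference was -0.08 in WT2 and -0.26 in WTA, small beside the distance between the cultures. Fzd7 had 8.80 (WT2) and 8.92 (WTA) in control cells and 8.92 and 8.72 with streptozotocin. Fzd5 and Fzd8, which resemble each other in sequence, had differences of 0.04 and 0.05 in WT2 and -0.06 and -0.16 in WTA. For Fzd6, a receptor of planar cell polarity, they were 0.19 and -0.35. In each of these 4 receptor genes, Fzd5, Fzd6, Fzd7 and Fzd8, the sign turned from WT2 to WTA.

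**Figure D2:**
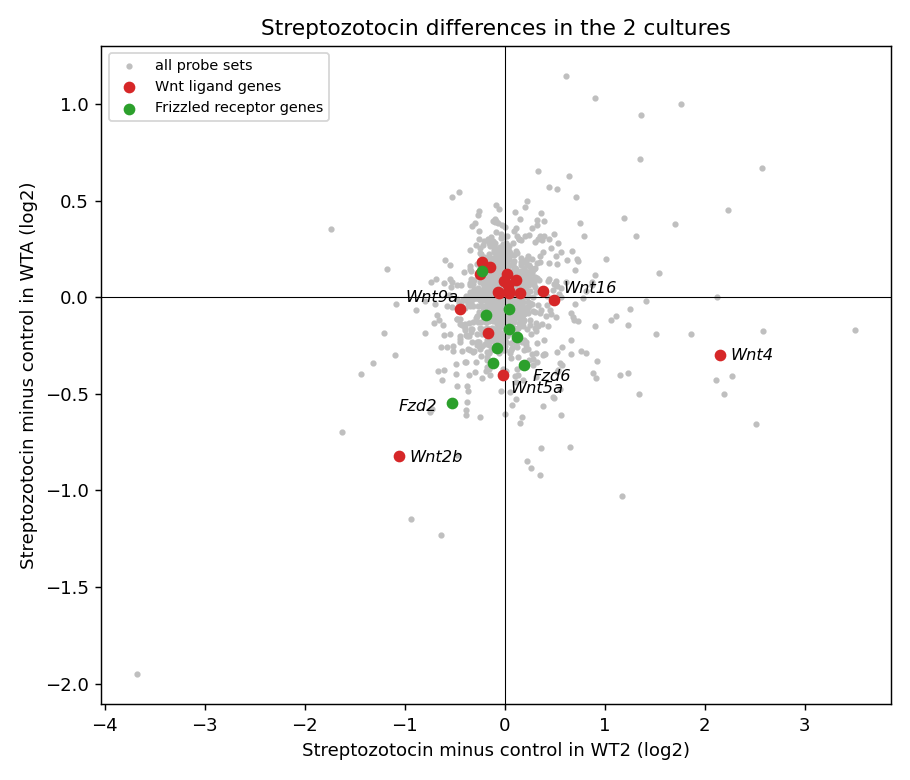
Streptozotocin minus control (log2) in WT2 on the horizontal axis and in WTA on the vertical axis, with 1 array per arm in each culture. Grey points are all 1246 probe sets, red points the Wnt ligand genes and green points the Frizzled receptor genes, and the axes have different scales. Wnt2b (-1.06 and -0.82) and Fzd2 (-0.52 and -0.55) lie in the lower left, and Wnt4 (2.15 and -0.30) far to the right.

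As a group the 28 genes differed about as much as the array as a whole, with a median difference in size of 0.08 for both. None passed limma's test without a block or with it (0.00% of all 1246 probe sets in each). At an unadjusted p under 0.05 there was 1 of 28 without the block (Wnt2b), where 2.01% of all probe sets had such a p, and there were 2 with it (Wnt2b and Fzd2), where 6.42% did. With its sign, the median difference was -0.02, beside -0.01 over all probe sets. Both treated arrays lay below both controls for 4 genes (Wnt2b, Fzd2, Fzd4 and Fzd10), as in 13.8% of all probe sets. Both lay above for 3 (Wnt1, Wnt3 and Wnt5b), as in 10.8%. These shares are close to the background, so they are no result about the family.

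Of the 28 genes, 7 were higher in both cultures, 8 lower in both, and 13 went opposite ways, where 22.6%, 28.5% and 49.0% of all probe sets did. A difference of at least 1.5-fold was seen in WT2 for Wnt4 (higher, as in 4.82% of all) and Wnt2b (lower, as in 2.49%). In WTA it was seen for Wnt2b (lower, as in 1.69%) and for 0 genes higher (0.642%). Wnt2b was thus the 1 member past that size in both cultures.

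Ligands and receptors were also described apart. The 9 receptor genes all had a mean difference below 0, where 52.9% of all probe sets did, and their median was -0.08. That of Fzd5 (-0.01) turned to 0.00 when arrays were centred on their medians. Only 4 of the 9 were lower in both cultures, and 5 went opposite ways. With 1 array left out, the mean differences of Fzd1, Fzd3, Fzd5, Fzd6, Fzd7 and Fzd8 changed sign. By culture, 5 of 9 were below 0 in WT2 and 8 of 9 in WTA, where 55.6% and 49.9% of all probe sets were. The receptor median was -0.08 in WT2 and -0.20 in WTA, beside -0.02 and 0.00 over all probe sets. After centring it was -0.09 and -0.17, and after quantile normalization -0.11 and -0.16. The 19 ligand genes had a median difference of 0.04, which turned to -0.00 after quantile normalization. Whether receptors and ligands differ was not tested.

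**Figure D3:**
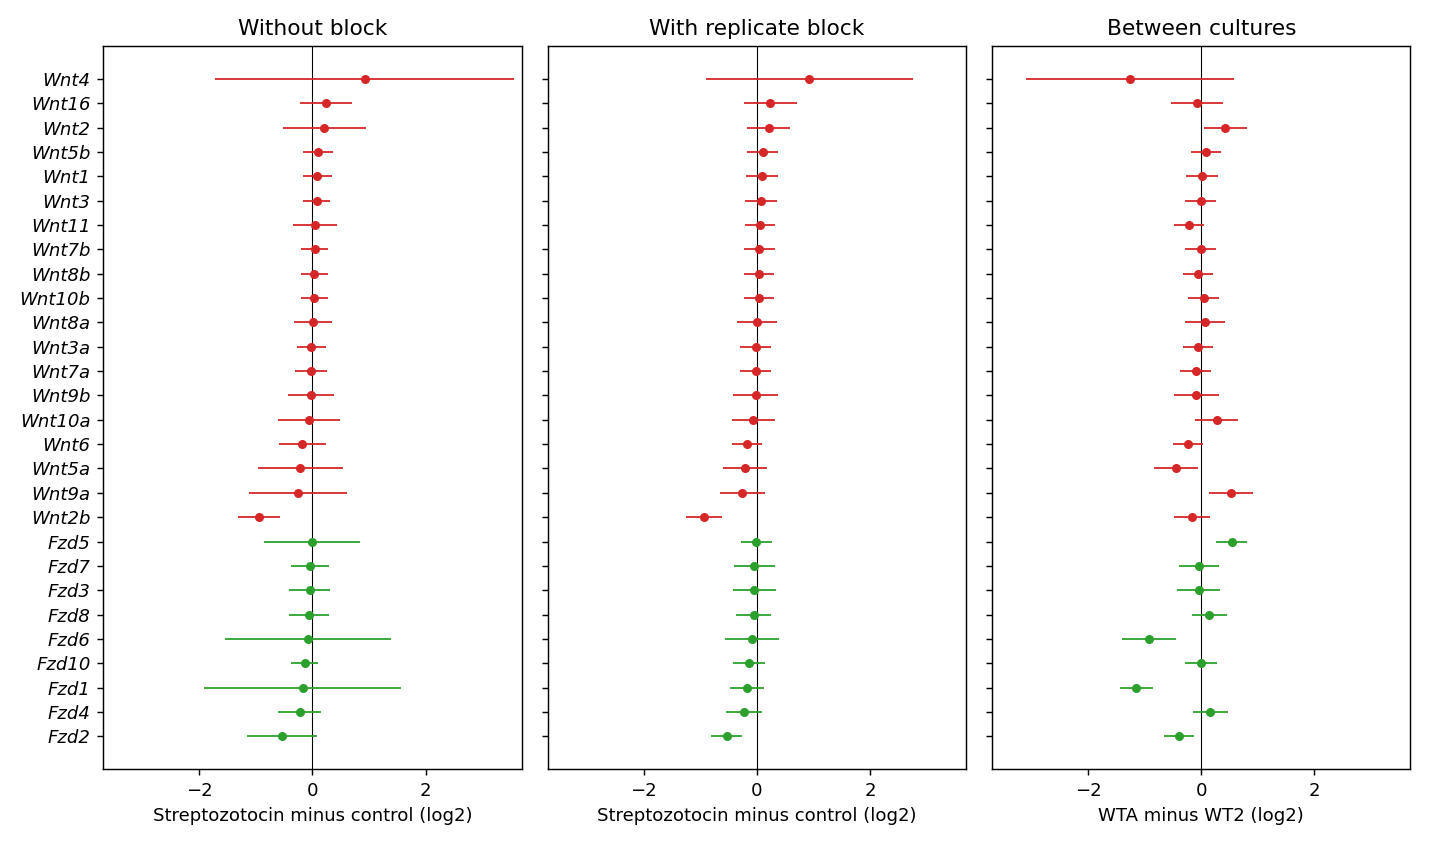
Differences (log2) of the 28 genes with 95% intervals from limma, for streptozotocin minus control without a block, the same with the replicate block, and WTA minus WT2. Red marks Wnt ligand genes and green marks Frizzled receptor genes. The intervals are not adjusted for 1246 tests, and Wnt2b (-0.94) lies below 0 in both streptozotocin panels while Fzd1 (-1.15) stands lowest among the receptors between the cultures.

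The second comparison asks how far WT2 and WTA differ in these genes, with treatment held in the same fit. Fzd1, a receptor that can signal through beta-catenin, had a WTA minus WT2 difference of -1.15 (log2, SE 0.10), a 2.21-fold lower signal in WTA. It was the 1 member past limma's test (adjusted p = 0.0445), where 2.25% of all probe sets passed in either direction and 0.803% were lower in WTA. The WT2 mean was 12.4 ± 0.06 and the WTA mean 11.3 ± 0.19 (SD, n = 2 each), and both WTA arrays lay below both WT2 arrays. Each SD is taken over the control and the treated array of the culture, so it holds the streptozotocin difference and is no spread between replicates. The distance was -1.05 between the control arrays and -1.24 between the treated arrays.

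The size of the Fzd1 difference held in every setting tried, between -1.28 and -1.01, but the call did not. Limma's adjusted p was 0.0300 with centred arrays and 0.0320 with an intensity trend. It was 0.0531 with the culture alone in the fit, 0.0639 with 1 probe set per gene, 0.0695 after quantile normalization and 0.0741 over brighter probe sets. With 1 array left out, the fit held culture alone and 1 array in a culture, so only sizes are given. The difference was -1.19 without the treated and -1.10 without the control array of WT2. It was -1.01 without the treated and -1.28 without the control array of WTA. Only 2 cell samples were compared, so the p-values above cannot speak for others.

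Fzd6 was read as 6.46 and 6.65 in WT2 and 5.81 and 5.46 in WTA, control first in each. Both WTA arrays lay below both WT2 arrays, with a difference of -0.93 (SE 0.17) that missed the threshold (limma adjusted p = 0.113). Fzd5 went the other way, with 7.08 and 7.12 in WT2 and 7.67 and 7.61 in WTA. Its difference was 0.54 (SE 0.10, limma adjusted p = 0.111), again with no overlap. Fzd2 was lower in WTA by -0.39 (SE 0.09, limma adjusted p = 0.167), with -0.37 between the control arrays and -0.40 between the treated arrays. Its control WTA array (9.70) was above its treated WT2 array (9.55), a pair that also differs in treatment. With 1 array left out, and culture alone in the fit, the difference ranged from -0.66 (without the control WTA array) to -0.11 (without the treated WTA array). Such fits are unbalanced, so these values hold part of the streptozotocin difference. Fzd7 (-0.04) and Fzd8 (0.14) had small culture differences, with 95% intervals of -0.40 to 0.32 and -0.16 to 0.45 from limma.

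Among the ligands, Wnt9a was higher in WTA by 0.52 and Wnt2 by 0.43, while Wnt5a was lower by -0.44. For each of these 3 genes the cultures did not overlap, and none passed the test (limma adjusted p = 0.192, 0.248 and 0.250). With 1 array left out, and culture alone in the fit, the difference ranged from 0.30 to 0.75 for Wnt9a (without the treated and the control array of WT2), from 0.24 to 0.62 for Wnt2 (without the control and the treated array of WT2) and from -0.64 to -0.24 for Wnt5a (without the control and the treated array of WTA). Wnt4 had the largest culture difference in size, -1.26, with a 95% interval of -3.09 to 0.57 (limma adjusted p = 0.457). It came from the treated arrays (-2.48), while the control arrays differed by -0.03. Thus untreated WT2 and WTA cells had nearly the same Wnt4 signal, and the value in the treated WT2 array sets both its culture and its streptozotocin difference.

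**Figure D4:**
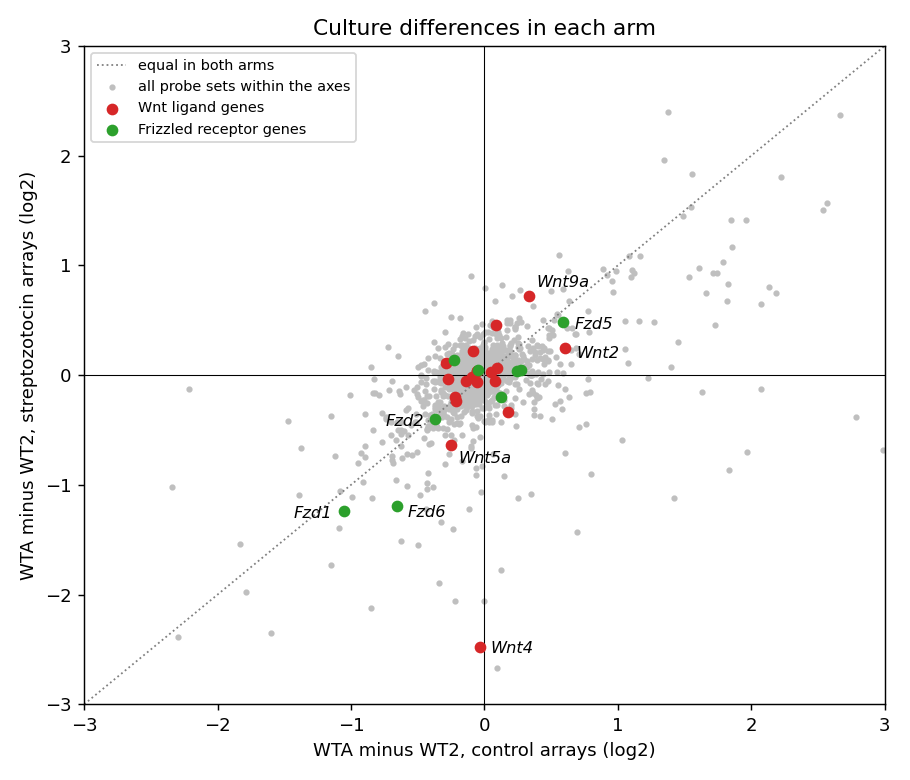
WTA minus WT2 (log2) between the control arrays on the horizontal axis and between the streptozotocin arrays on the vertical axis. Grey points are all probe sets within the axes (3 lie outside), red points the Wnt ligand genes and green points the Frizzled receptor genes, and the dotted line marks equal differences. Fzd1 (-1.05 and -1.24), Fzd2 (-0.37 and -0.40) and Fzd5 (0.59 and 0.49) lie near the line, and Wnt4 (-0.03 and -2.48) far below it.

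At an unadjusted p under 0.05, limma's culture term took 7 of the 28 genes (Fzd1, Fzd2, Fzd5, Fzd6, Wnt2, Wnt5a and Wnt9a), 3 higher and 4 lower in WTA, where 16.9% of all probe sets had such a p. Both WTA arrays lay below both WT2 arrays for 9 genes and above them for 6, beside 27.7% and 21.3% of all probe sets. The median culture difference in size was 0.12 for the 28 genes and 0.12 for all probe sets. Markers of other cell types differed between the cultures as well. The 4 of 10 endothelial markers measured had a mean log2 signal of 5.41 and 5.36 in WT2 and of 6.40 and 6.39 in WTA, control first. Of these, Esm1 was higher in WTA by 4.93 and Cd34 lower by -1.07, both past limma's test (adjusted p = 0.00304 and 0.0445). Pecam1 and Sele, the other endothelial markers measured, stayed below the lower quartile. The 4 fibroblast and adventitial markers were lower in WTA by a median of -0.47, and 0 of them passed limma's test. Among them, Lum was lower in WTA between the control arrays (-0.72) but higher between the treated arrays (0.26). The 4 of 11 leukocyte markers measured had a mean between 4.95 and 5.14 on all arrays. Of the leukocyte markers, Csf1r was the 1 bright gene, with a culture difference of 0.17 and streptozotocin differences of -0.26 in WT2 and 0.45 in WTA. Csf1r did not pass limma's test in either comparison (adjusted p = 0.771 for the culture and 1 for streptozotocin). The part of these markers in the Fzd1 difference was not tested.

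The rest of the pathway was sparse on this array. Of 49 further Wnt pathway genes, from the palmitoyl transferase gene Porcn to beta-catenin (Ctnnb1), Axin2 and Lef1, only Igfbp4 was among the named probe sets. Igfbp4, an insulin-like growth factor binding protein that also binds Wnt receptors, differed by 0.11 in WT2 and -0.24 in WTA. All 12 glypicans, syndecans and extracellular sulfatases were measured, proteins that carry heparan sulfate or trim it and so can hold or release Wnt ligands. With streptozotocin 6 were higher and 4 lower in both cultures, 0 passed limma's test in either fit or between the cultures, and the median difference was 0.09. The largest were Gpc3 (-0.50), Sulf1 (0.46) and Gpc6 (-0.42), of which Sulf1 encodes a sulfatase that can release Wnt ligands from heparan sulfate. In the culture comparison the largest were Gpc1 (-0.57), Gpc3 (0.54) and Sulf1 (0.47).

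Known targets of Wnt signalling were searched under 24 symbols, which include older and newer names of the same gene. Of these, 7 were measured and 0 passed limma's test for streptozotocin or culture. The largest streptozotocin differences were in Cd44 (0.57), Fgf18 (-0.52) and Vegfa (0.36), with a median of -0.06. Between the cultures they were in Bmp4 (1.24), Fgf18 (0.69) and Vegfa (0.53), with a median of 0.42. Axin2 and Lef1, the most direct readouts of beta-catenin activity, were not among the named probe sets, so pathway output was not measured here.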

How the data were processed

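The authors deposited 1 table of log2 values, with a column for each of 4 arrays and RMA as the method in the submitters' processing notes. RNA was extracted with Trizol and labelled with biotin, per the labels' protocols. No version, setting or build is given in the sources used here. Since RMA as a rule brings the arrays' distributions together, it can hide shifts common to most genes. The deposited distributions were close but not equal, with array medians from 5.83 (WTA with streptozotocin) to 5.87 (WT2 with streptozotocin).

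Of 1246 probe sets 963 were named by accession through a RefSeq table (GRCm38.p6, names only), and 283 stayed unnamed, 261 of them with UCSC names. Probe sets whose identifiers end in s, x or a (Fzd3, Fzd5, Fzd10, Wnt5a and Wnt10b here) may share probes with other transcripts. The members and gene lists were chosen with earlier results of these data known, and all 28 members were named.

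Streptozotocin was tested with limma 3.58.1 in R 4.3.3 (lmFit, eBayes), on group alone, with 2 residual and 1.68 prior degrees of freedom. The culture term came from a fit with treatment and culture (1 and 2.73). P-values were adjusted by Benjamini-Hochberg over all probe sets, at a threshold of 0.05. Both arms use number 1 for WT2 and 2 for WTA, and same-numbered arrays deviated together (correlation 0.600), so the numbers pair the arrays. The fit on group alone counts differences between the cultures as error, and the fit with the replicate block takes them out. Intervals are 95% and unadjusted. The fits were also run on simulated data. Those for the streptozotocin fits held no culture differences, so that run says nothing about how such differences affect them.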

Additional observations from a re-analysis of the deposited data

Results flagged for a closer look

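Wnt4 was singled out because its streptozotocin difference pointed in opposite directions in the cultures, 2.15 in WT2 and -0.30 in WTA, and these lay at least 1.5-fold apart. With 1 array per arm in each culture, the difference between them was not tested. Opposite directions alone were seen in 13 of the 28 genes and in 49.0% of all probe sets.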

How the results depend on the processing

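In the streptozotocin comparison, limma called 0 of the probe sets tested under all alternatives, with 25 at an unadjusted p under 0.05 without a block, 80 with the replicate block and 5 to 67 under the others. The replicate block (pairing by culture) changed no call of the 28 genes. The culture comparison gave 28 probe sets, and 13 with the culture alone in the fit, 8 after quantile normalization, 2 among those above the median level, 5 with 1 probe set per gene and 0 to 18 with 1 array left out (0 without either array of WTA, 18 without the treated and 12 without the control array of WT2). It gave 37 after centring and 35 with an intensity trend. Some of these settings tested fewer probe sets, and the cause of the other changes was not tested. Leaving out 1 array unbalances cultures and arms, and the culture fit then held no treatment term, so such values mix both differences. The streptozotocin difference then kept its direction for 12 of the 28 genes, Wnt2b and Fzd2 among them (-1.08 to -0.80 and -0.74 to -0.34), and turned for 16. Their ranges were -0.79 to 0.45 for Fzd1, -0.16 to 0.068 for Fzd3, -0.30 to 0.29 for Fzd5, -0.68 to 0.52 for Fzd6, -0.14 to 0.057 for Fzd7, -0.18 to 0.065 for Fzd8, -0.29 to 0.16 for Wnt10a, -0.063 to 0.16 for Wnt11, -0.094 to 0.51 for Wnt2, -0.064 to 0.0298 for Wnt3a, -0.31 to 2.17 for Wnt4, -0.53 to 0.11 for Wnt5a, -0.0897 to 0.052 for Wnt7a, -0.10 to 0.11 for Wnt8a, -0.61 to 0.11 for Wnt9a, -0.17 to 0.12 for Wnt9b. The culture difference kept its direction for 17 genes and turned for 11, with ranges of -0.10 to 0.089 for Fzd10, -0.16 to 0.068 for Fzd3, -0.0090 to 0.33 for Fzd4, -0.14 to 0.064 for Fzd7, -0.062 to 0.0895 for Wnt1, -0.32 to 0.17 for Wnt16, -0.69 to 0.38 for Wnt2b, -0.067 to 0.055 for Wnt3, -0.052 to 0.031 for Wnt7b, -0.011 to 0.14 for Wnt8a, -0.20 to 0.024 for Wnt9b. Small values also turned with scaling: for streptozotocin Fzd5 to 0.0031 after centring, and Wnt11 to -0.00043, Wnt7b to -0.024 and Wnt8a to -0.0038 after quantile normalization. Between the cultures Fzd10 turned to 0.017 after centring, 0.0199 after quantile normalization and 0.037 as the mean of its probe sets. Wnt3 turned to 0.015 and Wnt7b to 0.0099 after centring, and Fzd7 to 0.0022 and Wnt10b to -0.0038 after quantile normalization. Dim probe sets limit what can be seen, since 15 of the 28 genes had a mean at or below the median of all values.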
